A study of Mus musculus with 48 samples.

Results

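The joints described here connect the Jκ1 break of the mouse Igκ light chain locus with the rest of its own chromosome. They are all junctions on chromosome 6 whose prey position lies below 67500000 or above 70720000 on mm9, that is, beyond the Vκ genes on the centromere-proximal side or beyond Cκ on the centromere-distal side. Of 8250887 junctions in 48 libraries, 6448 met this rule (0.0781%). The files keep PCR copies, so joints that shared their prey position and strand, their bait end and the bases between the ends were also counted once per library. This left 937 distinct junctions at 632 positions, where positions within 50 bases of each other were merged.

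The libraries came from vAbl pro-B cells, mouse progenitor B cell lines transformed by the Abelson kinase, and were made by HTGTS-JoinT-seq, which amplifies outward from a fixed bait end and sequences into whatever DNA (the prey) was joined to it. WT cells join breaks by nonhomologous end joining (NHEJ). Ku70-/- cells miss part of Ku, the ring-shaped complex that binds broken ends first in NHEJ, and join by alternative end joining (A-EJ). Each genotype is a clonal line and the Ku70 gene was deleted with Cas9, so a difference between genotypes cannot be told apart from a difference between clones. Cells were cycling, or were arrested for 96 h with 3 µM STI-571, an inhibitor of the Abelson kinase, given with DMSO, with 5 µM L67, an inhibitor of DNA ligases I and III, or with 25 µM L82-G17, an inhibitor selective for DNA ligase I. Each of these states was assayed from the Jκ1 coding end (CE bait) and from the Jκ1 signal end (SE bait), which gives 16 groups of 3 libraries. Libraries held from 8294 to 385847 junctions out of 500000 read pairs each.

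V(D)J recombination, which is switched on in vAbl cells by arrest, starts when RAG1/2 cuts beside recombination signal sequences (RSSs), whose heptamer begins with CAC. Each cut leaves a hairpin-sealed coding end and a blunt signal end, and the ends normally join to those of a Vκ segment. Joints outside the locus need a break elsewhere on the chromosome, made either by RAG at an RSS-like sequence (a cryptic RSS) or in some other way. Because bait and prey lie on the same chromosome, a joint deletes, circularizes or inverts the DNA in between. From the CE bait a prey on the same strand as the bait is a deletion on the Vκ side and an excision circle on the Cκ side, the SE bait gives the mirror image, and a prey on the opposite strand is an inversion from either bait.

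Sequences of some break sites that lie at a CAC are given first, beside that of the bait break. They come from the mouse assembly NCBIM37 (mm9) and read 5′ to 3′. These sites do not represent all recurrent positions, and the Foxp1 site is not among the 10 positions named below. Among the named positions, the second Rpia site and the site near Vmn1r11 had no CAC within 3 bases of the break. Others lie in TG or CA repeats. Capitals mark the RSS heptamer or the 7 bases in its place. RAG cuts before the first capital, so the bases ahead of the capitals would be the coding end and the capitals would open the signal end. Jκ1 is shown on the minus strand (chr6:70672519-70672585). Rpia is the coding end of exon 1 of that gene and the first bases of the intron after it, on the minus strand (chr6:70741868-70741934). Mad2l1-side is an intergenic site (chr6:66421854-66421920, plus strand) whose nearest protein-coding gene start, that of Mad2l1, is 63501 bases away. Serbp1 (chr6:67217746-67217812, plus strand) and Foxp1 (chr6:99045424-99045490, plus strand) lie in introns.
Jκ1: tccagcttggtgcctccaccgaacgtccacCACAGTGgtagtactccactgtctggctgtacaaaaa
Rpia: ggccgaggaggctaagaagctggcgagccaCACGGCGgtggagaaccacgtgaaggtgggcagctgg
Mad2l1-side: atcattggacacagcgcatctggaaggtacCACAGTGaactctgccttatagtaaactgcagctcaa
Serbp1: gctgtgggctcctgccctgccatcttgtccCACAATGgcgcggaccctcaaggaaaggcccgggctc
Foxp1: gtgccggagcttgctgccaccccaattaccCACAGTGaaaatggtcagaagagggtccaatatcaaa
The sites beside Mad2l1 and in Foxp1 match the heptamer CACAGTG at 7 of 7 bases, Serbp1 at 6 and Rpia at 5. CACAGTG lies within 3 bases of the break for 0.185% of all positions and strands of chromosome 6 outside Igκ, so a match is a description and not proof of a cut.

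Some preys could also have come from Igκ itself. For 178 of the 937 distinct junctions, the read from its first prey base on aligned to the Igκ interval with a score at least as high as to the position in the file, and in 165 of them the score was higher. The pair below shows the most frequent case, the position at 27.6 Mb from Jκ1 on the Vκ side (chr6:43031540-43031599, plus strand, in AC158671.1, annotated as an immunoglobulin V gene) and the stretch of Igkv1-117 that 25 of its 39 reads of this kind matched best (chr6:68071739-68071798, minus strand). Capitals mark the 8 of 60 bases that differ.
43 Mb site: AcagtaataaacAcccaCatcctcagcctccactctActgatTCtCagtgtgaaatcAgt
Igkv1-117: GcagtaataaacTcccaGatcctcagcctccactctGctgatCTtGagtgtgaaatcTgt
At this position 39 of 40 distinct junctions were of this kind, and the reads aligned to it with a median identity of 86.5% against 96.6% for Igκ. The junctions that match Igκ were unevenly spread over the sets. They made up 97 of 214 distinct junctions of arrested WT libraries from the CE bait and 11 of 92 from the SE bait, against 32 of 358 and 21 of 227 in Ku70-/-. Most of them, 148, were found in a single read, and together they were 3.85% of the junctions as counted with copies. Many results that rest on them are therefore given with and without them.

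A pair of libraries stood apart. Library 1 of Ku70-/- cells with STI-571 and DMSO, from either bait, is not among the libraries that the study's tables list, and it held 927 distinct Vκ junctions from the CE bait and 965 from the SE bait, against 10972 to 13710 in libraries 2 and 3 of the same groups. Results that depend on this pair are given with and without it. The labels do not mark separate cultures, so the p-values measure the spread between libraries, part of which may be technical. The labels do not state whether a CE and an SE library share their DNA. The comparisons of arrest and of the inhibitors pool the baits as if they were independent, and if the baits share DNA they rest on 3 samples against 3, for which the smallest exact p is 0.1. Tests were exact two-sided permutation tests, 48 in all, with p-values adjusted by the Benjamini-Hochberg method over the 48.

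Chromosome 6 joints were rare in cycling WT cells and rose with arrest. Cycling WT libraries held 2, 2 and 3 junctions from the CE bait and 0, 0 and 0 from the SE bait, where a count of 0 allows up to 3 junctions or 0.0120% to 0.0133% of the library. With STI-571 and DMSO the counts were 82, 63 and 50 from the CE bait and 34, 136 and 60 from the SE bait. Every arrested WT library lay above every cycling WT library of its bait. Counted once per joint, the DMSO libraries held 22, 28 and 16 distinct junctions from the CE bait and 8, 8 and 8 from the SE bait, and the cycling libraries 2, 2 and 2 and 0, 0 and 0. The difference was 3.04 on the log2 scale of the distinct count plus 1 (exact permutation test within bait, adjusted p = 0.0150), and 5.17 with copies counted. These DMSO libraries also recovered more junctions of all kinds than the cycling WT libraries, 339201 to 385847 against 22602 to 32108, and per 100000 recovered junctions the difference was 0.73 (exact adjusted p = 0.136). Here and in later values per 100000 recovered junctions, each joint was counted once while the recovered junctions include copies.

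Ku70-/- cells already held such joints while cycling. Their cycling libraries had 40, 15 and 68 junctions from the CE bait and 83, 76 and 38 from the SE bait, or 5, 9 and 7 and 11, 3 and 5 distinct junctions. Each of these lay above all 3 cycling WT libraries of its bait. Of the 21 from the CE bait 10 matched Igκ, and without such reads the Ku70-/- libraries held 2, 4 and 5 against 2, 0 and 0 in WT, so that library 1 tied with a WT library, while those from the SE bait held 8, 3 and 5 against 0, 0 and 0. With STI-571 and DMSO, Ku70-/- libraries held 6, 227 and 284 junctions from the CE bait and 576, 266 and 236 from the SE bait. The low CE value and the high SE value are those of library 1, and 545 of its 576 SE junctions were copies of a single joint. In distinct junctions the same libraries held 3, 41 and 41 and 8, 27 and 24. The 8 of library 1 from the SE bait lay at only 2 merged positions, 7 of them at a position in Cntn3 described below. Arrest raised the distinct count by 1.39 on the log2 scale, which did not pass (exact permutation test, adjusted p = 0.120), and by 2.21 without library 1 of either bait, which did (adjusted p = 0.0229). Per 100000 recovered junctions the sign turned, to -2.12 (exact adjusted p = 0.0126), where cycling Ku70-/- libraries recovered 8294 to 14579 junctions of all kinds and those with DMSO 133143 to 192122.

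**Figure D1:**
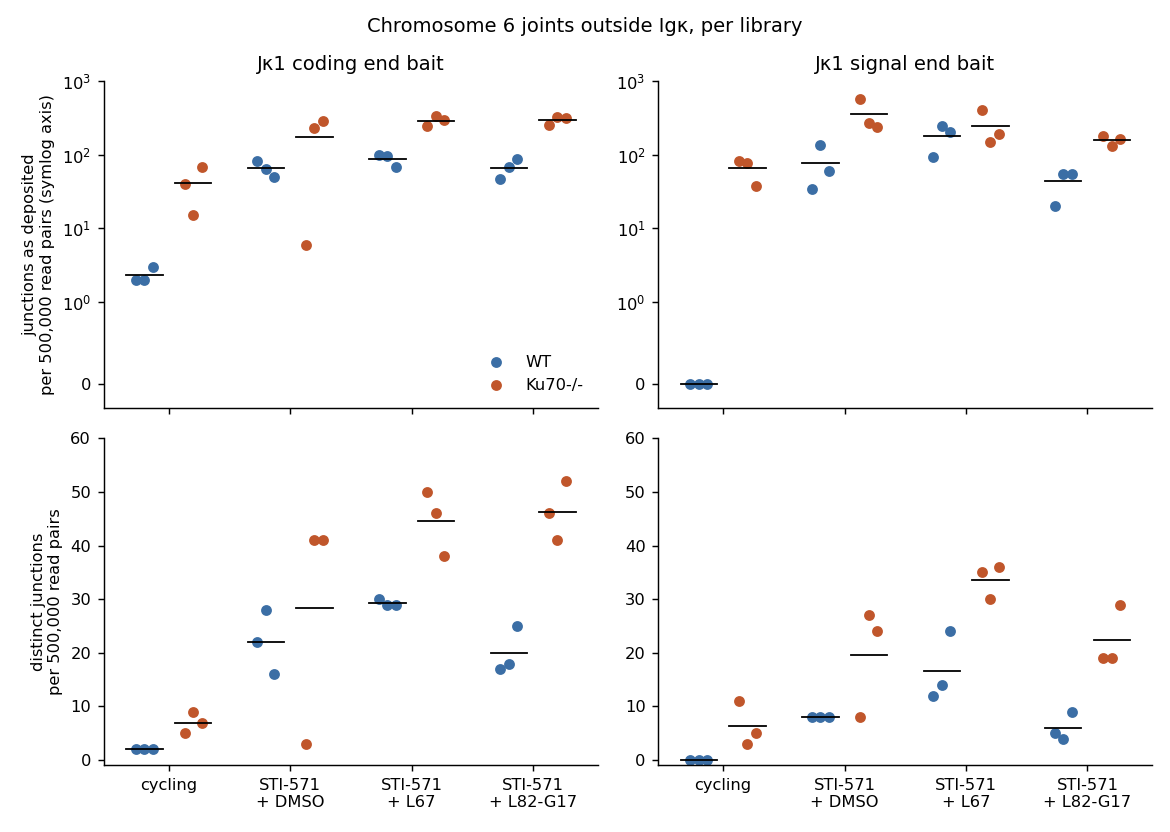
Chromosome 6 joints outside Igκ in each of the 48 libraries, as junctions with copies (upper panels, symmetric log axis) and as distinct junctions (lower panels, linear axis), both out of 500000 read pairs, with WT in blue, Ku70-/- in orange and group means as bars. Ku70-/- libraries lie above WT libraries in most groups, the cycling WT libraries of the SE bait are at 0, and library 1 of the Ku70-/- DMSO group from the CE bait sits at 6 junctions below its group.

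Across the 4 states, Ku70-/- libraries held more chromosome 6 joints than WT. Junctions with copies were higher by 1.90 from the CE bait (exact permutation test within treatment, adjusted p = 0.00762) and by 2.68 from the SE bait (adjusted p = 0.0012) on the log2 scale. Distinct junctions were higher by 0.73 from the CE bait (exact adjusted p = 0.0468) and by 1.64 from the SE bait (adjusted p = 0.0012). Arrested Ku70-/- SE libraries also held more distinct junctions of all kinds. Their means with DMSO, L67 and L82-G17 were 10597, 17423 and 10682, against 2547, 2721 and 1559 in WT. As a mean share of these, chromosome 6 joints were 0.312% (0.161% and 0.175% in libraries 2 and 3), 0.193% and 0.212%. The WT shares were 0.320%, 0.612% and 0.379%. The CE and cycling shares were higher in Ku70-/-, and none was tested. The CE difference in distinct junctions was 1.38 in cycling cells, -0.23 with DMSO, 0.58 with L67 and 1.19 with L82-G17, and the SE difference was 2.72, 1.04, 1.03 and 1.77. Without reads that match Igκ the difference was 1.25 from the CE bait (exact adjusted p = 0.0158) and 1.63 from the SE bait (adjusted p = 0.002), and the CE differences in the 4 states were 1.64, 0.28, 1.24 and 1.83, so that the sign with DMSO turned. The sign with DMSO also turned without library 1 of Ku70-/-, to 0.90 from the CE bait, and the SE difference with DMSO was then 1.56. Per 100000 recovered junctions, a total that counts copies, the CE difference in distinct junctions was larger, at 1.74 (exact adjusted p = 0.00096). As a mean share of all distinct junctions, Ku70-/- CE libraries with DMSO, L67 and L82-G17 held 0.242%, 0.246% and 0.290%. The WT CE shares were 0.172%, 0.222% and 0.228%. Without the 10 named positions the CE difference in distinct junctions was 1.84. These positions were picked from the same data and held 45.5% of WT and 7.36% of Ku70-/- distinct junctions. Leaving them out therefore raises the difference by construction and adds no evidence for it. Over all reads the CE call ended when any of 18 of the 24 libraries was left out, with values from 0.59 to 0.78, and held without library 3 of the WT groups with L67 or L82-G17, library 1 of cycling Ku70-/-, library 1 of Ku70-/- with DMSO (1.01), library 3 of Ku70-/- with L67 or library 2 of Ku70-/- with L82-G17.

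The ligase inhibitors were set against DMSO within arrested cells. With L67, WT libraries held 98, 97 and 67 junctions from the CE bait and 93, 245 and 200 from the SE bait, or 30, 29 and 29 and 12, 14 and 24 distinct junctions. All of these distinct counts were above the DMSO values of the same bait, by 0.67 on the log2 scale (exact permutation test within bait, adjusted p = 0.0150). As a share of all distinct junctions, the CE values with L67 were 0.221%, 0.237% and 0.207% against 0.166%, 0.226% and 0.125% with DMSO, which overlap. The SE shares were 0.411%, 0.599% and 0.826% against 0.262%, 0.348% and 0.349%, and no share was tested. Without reads that match Igκ the difference in the distinct count was 0.57 (exact adjusted p = 0.024), and the CE counts were 20, 13 and 16 against 10, 14 and 9, which overlap. With copies counted the difference was 0.88 and did not pass (exact adjusted p = 0.0923), and among preys aligned over at least 50 bases it was 0.65 (adjusted p = 0.0764). With L82-G17, WT libraries held 46, 67 and 86 junctions from the CE bait and 20, 55 and 55 from the SE bait. Their distinct counts, 17, 18 and 25 and 5, 4 and 9, overlapped those with DMSO and differed by -0.27 (exact adjusted p = 0.293). L82-G17 libraries recovered 130487 to 213122 junctions of all kinds, fewer than the DMSO libraries, and per 100000 recovered junctions the sign turned, to 0.67 (exact adjusted p = 0.0126).

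In Ku70-/- cells the inhibitor comparisons rested on library 1 of the DMSO groups. L67 libraries held 243, 334 and 291 junctions from the CE bait and 401, 149 and 192 from the SE bait, with 50, 46 and 38 and 35, 30 and 36 distinct junctions. The difference from DMSO was 1.07 on the log2 scale of distinct junctions (exact permutation test, adjusted p = 0.0341) and 0.25 without library 1 of either bait (adjusted p = 0.0993). Leaving out library 1 of the DMSO group from the CE bait alone gave 0.51, from the SE bait alone 0.81, and leaving out any of the L67 libraries gave 1.03 to 1.13, and none of these passed. L82-G17 libraries held 250, 320 and 318 junctions from the CE bait and 179, 131 and 164 from the SE bait, with 46, 41 and 52 and 19, 19 and 29 distinct junctions. Their difference from DMSO was 0.80 (exact adjusted p = 0.377), and it was -0.02 without library 1 of either bait and 1.14 per 100000 recovered junctions (adjusted p = 0.0126).

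The SE bait yielded fewer distinct junctions than the CE bait in WT, and the median joint was found in more copies. The difference was -1.34 on the log2 scale (exact permutation test within treatment, adjusted p = 0.0006). It was -0.59 without the reads that match Igκ and -0.46 without the 10 recurrent positions named below, which both passed, and -0.36 with copies counted (exact adjusted p = 0.413), which did not. Distinct junctions of all kinds were also fewer from the SE bait in arrested WT cells. Their means with DMSO, L67 and L82-G17 were 2547, 2721 and 1559, against 12828, 13278 and 8808 from the CE bait. As a mean share of these, chromosome 6 joints were higher from the SE bait, at 0.320%, 0.612% and 0.379% against 0.172%, 0.222% and 0.228%. These shares were not tested. In Ku70-/- the bait difference in the distinct count was -0.43 (exact adjusted p = 0.293), or -0.72 (adjusted p = 0.0113) without library 1 of the DMSO group from the CE bait. The median joint had 1 copy in WT from the CE bait and 5 from the SE bait, against 4 and 2 in Ku70-/-, and the largest had 23, 70, 35 and 545. Without reads that match Igκ the medians were 3 and 6 copies in WT and 5 and 3 in Ku70-/-. Over all distinct junctions the median was 3 copies and 37.9% were seen once. Libraries of the SE bait recovered fewer junctions of all kinds than those of the CE bait in arrested WT cells and with L82-G17 in Ku70-/- cells, and more in the other arrested Ku70-/- groups. The part of this depth in the copy numbers was not tested.

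Joints to chromosome 6 were denser than joints to the other chromosomes. Per Mb, the 9 arrested WT libraries held 0.112 to 0.210 distinct junctions on chromosome 6 outside Igκ from the CE bait (median 0.175) against 0.0383 to 0.0882 on the other chromosomes outside antigen receptor loci (median 0.0557). From the SE bait these densities were 0.0280 to 0.168 (median 0.0559) against 0.00541 to 0.0204 (median 0.0121). In Ku70-/- they were 0.0210 to 0.363 (median 0.287) against 0.0245 to 0.133 (median 0.0899) from the CE bait, and 0.0559 to 0.252 (median 0.189) against 0.00915 to 0.0936 (median 0.0703) from the SE bait. The mean log2 ratio within a library was 1.57 in WT from the CE bait (fold 2.98), 2.53 in WT from the SE bait (fold 5.78), 1.45 in Ku70-/- from the CE bait (fold 2.73) and 1.58 in Ku70-/- from the SE bait (fold 2.99). All 4 passed (exact sign-flip permutation over 9 libraries, adjusted p = 0.0137, 0.0137, 0.0188 and 0.0137), and the ratio was above 0 in 35 of 36 arrested libraries, the exception being library 1 of Ku70-/- with DMSO from the CE bait (-0.02). Beyond 30 Mb from Jκ1 the mean ratio was -0.02 in WT from the CE bait, 1.07 in WT from the SE bait, 1.23 in Ku70-/- from the CE bait and 1.33 in Ku70-/- from the SE bait, and of these the first did not pass. Without the 10 recurrent positions named below the WT CE ratio was 0.40 (exact adjusted p = 0.0938) and the others passed. These positions were picked from the same data and left out on chromosome 6 only, while recurrent positions on the other chromosomes stayed in. Leaving them out therefore lowers the ratio by construction.

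Density was highest beside the locus on both sides, and on the Cκ side it fell from the edge of the locus out to 10 Mb and no farther. In the first bin past Cκ, 47.4 to 100 kb from the break and 0.05 Mb wide, arrested WT libraries held 38.1 ± 7.77 distinct junctions per Mb (mean ± SEM, n = 9) from the CE bait and 35.9 ± 9.22 from the SE bait, and Ku70-/- libraries held 23.3 ± 10.4 and 33.8 ± 6.93. These are few joints: 18, 17, 11 and 16 distinct junctions at 3, 4, 7 and 6 merged positions. The Rpia exon 1 site described below gave 15 of the 18, 14 of the 17, 5 of the 11 and 1 of the 16. A second Rpia site gave 3, 2 and 3 of the 16 with DMSO, L67 and L82-G17. In the last bin, 31.6 to 78.8 Mb away, the densities were 0.0519 ± 0.013 and 0.0283 ± 0.007 in WT and 0.245 ± 0.036 and 0.141 ± 0.030 in Ku70-/-. The ratio of the first to the last bin was 734 in WT from the CE bait, 1270 in WT from the SE bait, 94.8 in Ku70-/- from the CE bait and 239 in Ku70-/- from the SE bait. Without reads that match Igκ these ratios were 1009, 1905, 108.4 and 260.8. The WT ratios rest largely on the Rpia exon 1 site, and no ratio was computed without the Rpia sites. From the bin of 3.16 to 10 Mb to that of 10 to 31.6 Mb the mean density was higher in all 4 sets, at 0.0487 and 0.0925 in WT from the CE bait, 0 and 0.0206 in WT from the SE bait, 0.211 and 0.313 in Ku70-/- from the CE bait and 0.0975 and 0.185 in Ku70-/- from the SE bait, a difference that was not tested. Between 3.16 and 10 Mb no WT SE library held a joint, and between 1 and 3.16 Mb the WT CE bait gave 1.

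On the Vκ side the nearest member lay 3.19 Mb from Jκ1, so only the outer part of the decline could be seen. From 3.17 to 10 Mb arrested WT libraries held 0.863 ± 0.121 distinct junctions per Mb (mean ± SEM, n = 9) from the CE bait and 0.439 ± 0.138 from the SE bait, against 0.456 ± 0.093 and 0.260 ± 0.072 in Ku70-/-. Beyond 31.6 Mb the densities were 0.0833 ± 0.022 and 0.0123 ± 0.005 in WT and 0.188 ± 0.030 and 0.114 ± 0.021 in Ku70-/-, so that the first bin exceeded the last 10.4-fold and 35.6-fold in WT and 2.42-fold and 2.28-fold in Ku70-/-. Without reads that match Igκ these were 18.5-fold, 68.5-fold, 2.45-fold and 2.55-fold. Of the 69 WT CE junctions between 10 and 31.6 Mb, 59 matched Igκ at least as well, and without them the density there was 0.0515 in place of 0.355.

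**Figure D2:**
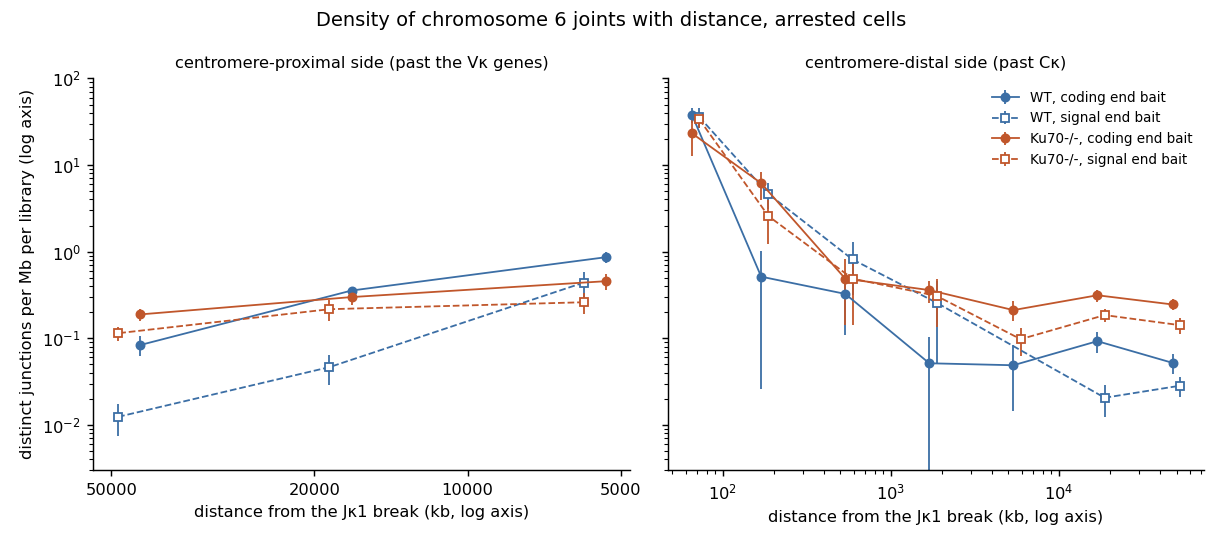
Distinct junctions per Mb per library in logarithmic bins against the distance from the Jκ1 break in kb (both axes logarithmic), on the Vκ side (left, distance growing leftward) and the Cκ side (right), as mean ± SEM of 9 arrested libraries for WT (blue) and Ku70-/- (orange) from the CE bait (filled) and the SE bait (open), with bins at 0 left out and error bars that would reach 0 shortened for the log axis. All 4 lines start between 23.3 and 38.1 beside the locus on the Cκ side, and the WT lines end below the Ku70-/- lines.

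On the Cκ side, a smaller share of Ku70-/- joints than of WT joints lay within 1 Mb of Jκ1. Over both sides the pooled median distance in arrested cells was 27641 kb in WT and 28722 kb in Ku70-/- from the CE bait. From the SE bait it was 3455 and 28839 kb. Without reads that match Igκ the CE medians were 5471 and 28511 kb. The medians were not tested. Of the distinct junctions on the Cκ side, 10% to 75.0% (median 28.6%) lay within 1 Mb of Jκ1 in the 9 arrested WT libraries from the CE bait and 46.2% to 100% (median 60%) from the SE bait. In Ku70-/- the shares were 0% to 28.0% (median 8%) and 9.09% to 33.3% (median 16.7%). From the SE bait every Ku70-/- library lay below every WT library, and the difference was -46.8 percentage points (exact permutation test within treatment, adjusted p = 0.00133). From the CE bait the ranges overlapped and the difference was -24.5 points (exact adjusted p = 0.0176), but it was -2.06 points (adjusted p = 0.834) without the 10 recurrent positions named below. Among them is the Rpia site, which gave 15 of the 21 WT CE junctions within 1 Mb. The slope of log10 density on log10 distance, over bins on the Cκ side, had a mean of -0.48 in WT and -0.19 in Ku70-/- from the CE bait, and of -0.81 and -0.42 from the SE bait. Before the logarithm, the density of 1 junction in the widest bin was added to each bin, so empty bins had a floor. The slope therefore also depended on how many joints a library held. The genotype difference in slope was 0.29 from the CE bait (exact adjusted p = 0.199) and 0.39 from the SE bait (adjusted p = 0.0188), and the SE call ended with narrower bins (0.14, adjusted p = 0.204) and without the named positions (0.23).

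The orientation of joints near the break was compared with that far from it within each set of libraries. Within 100 kb on the Cκ side, all 17 WT and all 16 Ku70-/- distinct junctions from the SE bait were on the bait strand, which here is a deletion. From the CE bait 16 of 18 in WT and 3 of 11 in Ku70-/- were on the bait strand, which here is an excision circle. Within 1 Mb on that side, the share on the bait strand had a median of 100% in WT from the CE bait (range 0% to 100%, 9 libraries), against 25.0% (0% to 75.0%) beyond 10 Mb. The mean difference was 48.4 points (exact sign-flip permutation over 9 libraries, adjusted p = 0.0341). It was 52.0 points in Ku70-/- from the SE bait (exact adjusted p = 0.0188), 22.6 points in WT from the SE bait (7 libraries, adjusted p = 0.290) and -7.70 points in Ku70-/- from the CE bait (7 libraries, adjusted p = 0.692). The WT CE call ended without any of 8 of the 9 libraries (41.9 to 51.3 points), and held without library 3 with L67 (60 points). Neither the WT CE nor the Ku70-/- SE call held without the named positions, with 30.1 and 29.98 points, or without joints seen in more than 1 library, with 22.6 and 32.2 points.

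Orientation on the Vκ side was one-sided in WT from the CE bait. Between 3.17 and 10 Mb, 50 of 53 distinct junctions were deletions, and 39 of 42 without those that matched Igκ. The 53 lay at 25 merged positions, and the site beside Mad2l1 described below gave 11 of the deletions. In Ku70-/- from the CE bait 18 of 28 were deletions. From the SE bait 9 of 27 junctions in WT and 12 of 16 in Ku70-/- were on the bait strand, which here is an excision circle. From 10 to 31.6 Mb the WT CE joints were mostly inversions, 64 of 69, and 59 of these 69 matched Igκ. Beyond 31.6 Mb in Ku70-/-, where joints were most numerous, strands were mixed, with 35 of 61 on the bait strand on the Vκ side and 49 of 104 on the Cκ side from the CE bait.

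WT joints lay next to CAC trinucleotides and Ku70-/- joints mostly did not. A joint was counted here when CAC began within 3 bases of the break, either as the first bases of the prey (the signal side of a cryptic RSS) or on the other strand right behind it (the coding side), which holds for 18.9% of all positions and strands of chromosome 6 outside Igκ. In arrested WT libraries this share was 42.9% to 82.4% (median 66.7%) from the CE bait and 50.0% to 100% (median 70.8%) from the SE bait. In Ku70-/- libraries it was 0% to 30.4% (median 24.4%) and 0% to 36.1% (median 22.9%), so the genotypes did not overlap from either bait. The differences were -42.2 and -52.2 percentage points (exact permutation test within treatment, adjusted p = 0.00133 for each, from the smallest p the test can give, 0.00025). This comparison was added after the data had been seen, and it passed under every alternative run for it.

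Pooled over libraries, 139 of 214 WT CE junctions, 64 of 92 WT SE junctions, 90 of 358 Ku70-/- CE junctions and 51 of 227 Ku70-/- SE junctions carried the CAC. Without reads that match Igκ the counts were 97 of 117, 58 of 81, 86 of 326 and 45 of 206. The WT CE set also held 72 junctions in TG or CA repeats, which contain CAC-like letters throughout, and without these and the Igκ matches 66 of 85 remained. Counting each merged position once, without Igκ matches, the shares were 55 of 70 and 30 of 48 in WT and 74 of 286 and 33 of 162 in Ku70-/-. The full heptamer CACAGTG lay within 3 bases for 26 WT CE, 6 WT SE, 3 Ku70-/- CE and 3 Ku70-/- SE junctions. On the other chromosomes the CAC share was 59.8% and 52.9% in arrested WT libraries from the CE and SE baits and 26.9% and 26.3% in Ku70-/-, which is a contrast in the same direction, not tested.

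The side of the CAC that a joint took is given as counts, with no test. Without Igκ matches and TG or CA repeats, 43 of 85 WT CE joints had the CAC on the coding side only and 14 on the signal side only. The WT SE bait gave 37 and 19 of 81. In Ku70-/- the counts were 39 and 42 of 319 from the CE bait and 14 and 26 of 206 from the SE bait. A CAC on a given side, with or without the other, holds for 9.73% of all positions and strands of chromosome 6 outside Igκ. The Rpia site described below held many of the WT joints. Without it the WT counts were 40 and 5 of 70 from the CE bait and 25 and 19 of 67 from the SE bait. Among WT CE deletions on the Vκ side, again without Igκ matches and repeats, 30 of 41 had the CAC behind the prey only, the coding side, and 1 had it at the start of the prey only. From the SE bait the 11 excision circles on the same side gave 8 with the signal side and 2 with the coding side, while the 22 inversions there gave 2 and 12. On the Cκ side the WT CE circles were split between 10 signal-side and 5 coding-side joints of 21, or 10 and 13 of 29 with the repeats, and WT SE deletions between 6 and 15 of 33, of which 9 signal-side circles and 12 coding-side deletions were at the Rpia site. In Ku70-/- 52 of 71 CE deletions on the Vκ side had neither.

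WT joints from the SE bait lay close to gene starts. Within 1 kb of the start of a protein-coding gene fell 25.0% to 87.5% (median 40%) of the distinct junctions of arrested WT SE libraries, against 0% to 12.5% (median 2.78%) in Ku70-/- SE libraries and 1.57% of chromosome 6 outside Igκ. The difference was -43.4 points (exact permutation test within treatment, adjusted p = 0.00133), again a comparison added after the data had been seen. Of the 44 such WT SE junctions at 21 merged positions, 14 were at the Rpia site. From the CE bait the shares were 3.45% to 29.4% (median 7.14%) in WT and 0% to 13.5% (median 4.88%) in Ku70-/-, a difference of -6.24 points (exact adjusted p = 0.0504) that was -15.1 points without the reads matching Igκ (adjusted p = 0.0103). Of the WT SE junctions 66 of 92 lay in protein-coding genes, of the WT CE junctions 101 of 214, and of the Ku70-/- junctions 156 of 358 from the CE bait and 121 of 227 from the SE bait, where such genes cover 42.2% of the sequence.

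**Figure D3:**
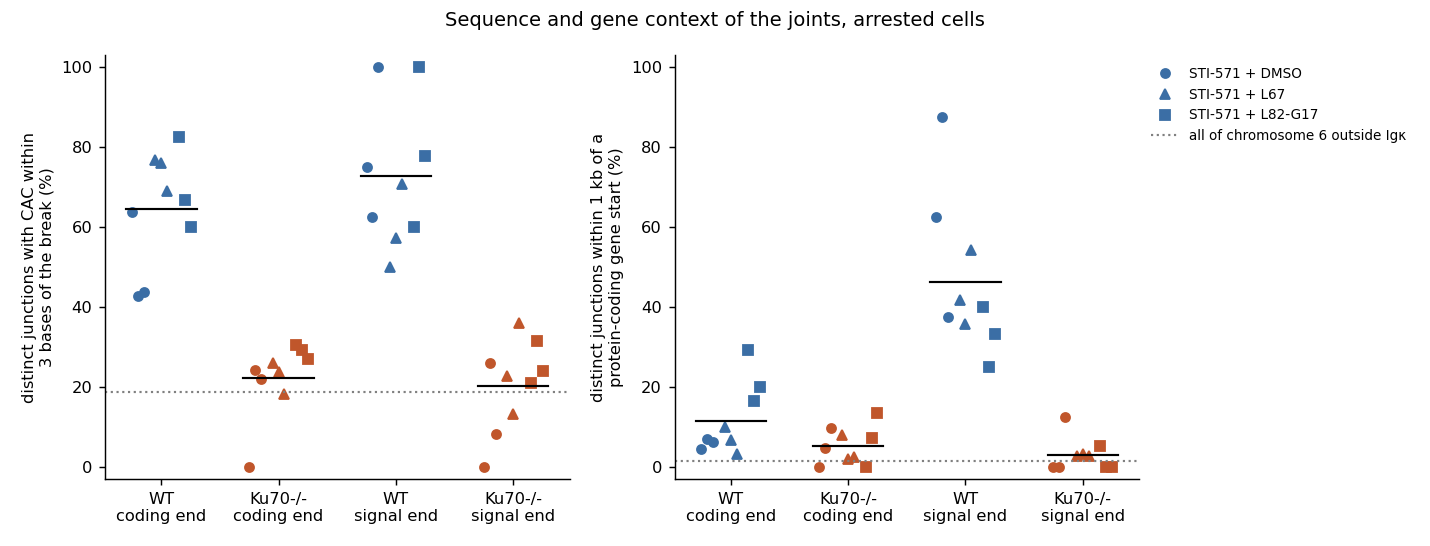
Percent of distinct junctions per arrested library with CAC within 3 bases of the break (left) and within 1 kb of a protein-coding gene start (right), with the treatment as marker shape, the mean of 9 libraries as a bar and the share over all of chromosome 6 outside Igκ as a dotted line (18.9% and 1.57%). WT libraries (blue) lie between 42.9% and 100% in the left panel and Ku70-/- libraries (orange) between 0% and 36.1%, and the WT SE libraries stand highest in the right panel, from 25.0% to 87.5%.

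Joint structure differed between genotypes from the CE bait. Joints are direct, share bases between bait and prey (microhomology) or carry bases between them (insertion), within 20 bases. The insertion share was 41.2% to 65.0% (median 57.1%) in arrested WT CE libraries and 5.77% to 33.3% (median 14.6%) in Ku70-/- CE libraries, with no overlap, a difference of -40.3 points (exact permutation test within treatment, adjusted p = 0.00133). Microhomology rose from a median of 25.0% to 50.0%, by 23.6 points (exact adjusted p = 0.00133), and direct joints from 18.5% to 34.8%, by 16.7 points (adjusted p = 0.0137). Reads that match Igκ carried much of this. Without them the differences were -16.9 points for insertions, 5.37 for microhomology and 11.5 for direct joints, and none passed (exact adjusted p = 0.196, 0.669 and 0.145). The pooled WT CE insertion count fell from 110 of 195 to 45 of 117.

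From the SE bait no structure class passed the test between genotypes. Insertions made up 0% to 37.5% (median 25.0%) in WT and 8.33% to 62.5% (median 13.9%) in Ku70-/-, a difference of -0.68 points (exact permutation test within treatment, adjusted p = 0.972). The 62.5% is that of library 1 of Ku70-/- with DMSO, and without it the difference was -6.52 points (exact adjusted p = 0.334). Direct joints differed by -2.86 points (exact adjusted p = 0.741) and microhomology by 3.54 points (adjusted p = 0.692). The median overlap of microhomology joints was 2 bases in all 4 arrested sets. Overlaps of 4 bases or more were 15 of 53 WT CE, 7 of 35 WT SE, 29 of 178 Ku70-/- CE and 15 of 95 Ku70-/- SE microhomology joints. Without reads that match Igκ these were 7 of 44, 6 of 31, 28 of 166 and 13 of 87.

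The structure of chromosome 6 joints was set against that of translocations to other chromosomes within each library. In WT from the CE bait microhomology was higher on chromosome 6 by 9.03 points (exact sign-flip permutation over 9 libraries, adjusted p = 0.0469) and insertions differed by -7.87 points (adjusted p = 0.0577). The insertion difference was -24.4 points without the reads that match Igκ, -24.3 without the named positions, -11.2 with joints merged within 5 bases and -9.95 with copies counted, and each of these passed, and with the bounds moved 1 Mb out it was 3.26 and did not pass. The named positions were picked from these data, several held mostly insertions, and they were left out on chromosome 6 only. The value without them therefore shifts by construction and adds no evidence. The microhomology call held only without library 3 with L67 (10.7 points) or library 3 with L82-G17 (10.6 points) and ended without any of the other 7 libraries (7.48 to 9.51 points). The remaining 10 differences of this kind ranged from -6.06 to 8.52 points and none passed.

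**Figure D4:**
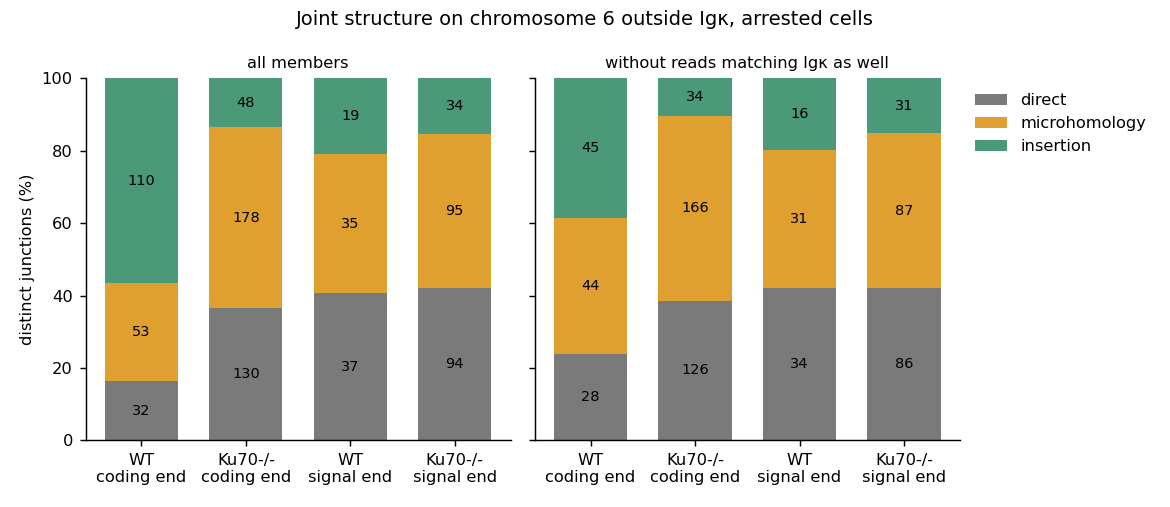
Share of direct, microhomology and insertion joints among the distinct junctions of 9 pooled arrested libraries per genotype and bait, with the number of junctions in each segment, for all joints (left) and without reads that match Igκ at least as well (right). The WT CE column carries 110 insertions on the left and 45 on the right, and the other columns change little.

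Most positions were hit once. Of the 632 merged positions, 591 were seen in 1 library, 19 in 2 and 22 in 3 or more, 17 in both genotypes and 14 from both baits. The 10 positions with the most distinct junctions among those seen in at least 3 libraries held 188 of the 937 distinct junctions (20.1%), 45.5% of those in WT and 7.36% of those in Ku70-/-. Of the 188, 94 matched Igκ at least as well, and the shares by genotype were not computed without them. Of the 10 positions, 9 are described below without a test.

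The Rpia site in exon 1 (chr6:70741871-70741977) was the most widespread, with 35 distinct junctions and 261 copies in 21 libraries and none that matched Igκ. Rpia encodes ribose 5-phosphate isomerase A of the pentose phosphate pathway, is the nearest protein-coding gene past Cκ, and the site lies 69.3 kb from Jκ1 and 321 bases from the start of the gene. It gave 3, 3 and 9 distinct junctions in the WT CE groups with DMSO, L67 and L82-G17 and 6, 5 and 3 in the WT SE groups. In Ku70-/- it gave 2, 2 and 1 from the CE bait and 1, with L82-G17, from the SE bait, and no cycling library held it. In WT most joints of both bait ends lay at or within 3 bases of the boundary of the capitals printed above for Rpia. From the SE bait all 14 joints were deletions, and 12 of them took the coding side of CACGGCG. From the CE bait 13 of 15 were excision circles, and 9 of these began within 3 bases of the first capital, on the signal side. Over both genotypes 9 joints from the SE bait had their first prey base at 70741905 and 6 joints from the CE bait had it at 70741904, the base next to it.

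A second site in Rpia behaved differently. At chr6:70723575-70723577, 51.0 kb from Jκ1, 12 distinct junctions were found in 11 of the 12 Ku70-/- SE libraries, 3 of them cycling, and in no other library. All were deletions with microhomology, and the same joint, with an overlap of 1 base, made up 292 of the 293 copies. Over DMSO, L67, L82-G17 and cycling libraries its copies were 114, 12, 70 and 97. No CAC lay within 3 bases. A joint of the same kind was found at position 57090522, 3175 bases from the start of the vomeronasal receptor gene Vmn1r11 and 13.6 Mb from Jκ1. It was an excision circle with 2 inserted bases, seen with the same structure in 8 Ku70-/- SE libraries, 2 of them cycling, with 71 copies. Its surroundings are shown because they hold no CAC near the break (chr6:57090492-57090552, plus strand, first prey base in capitals).
Vmn1r11-side: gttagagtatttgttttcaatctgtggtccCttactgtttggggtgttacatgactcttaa
The repeated joint at either site had the same bait end, 70672515. Whether such joints arose once in the culture and were carried along, anew in each library or otherwise cannot be told apart from these files.

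The site beside Mad2l1 (chr6:66421842-66421888), a spindle checkpoint gene, held 22 distinct junctions and 208 copies in 13 libraries, all arrested, 4.25 Mb from Jκ1. It carries the same heptamer as Jκ1. In WT from the CE bait all 11 were deletions, and 10 of them took the coding side of the heptamer, the arrangement of a Vκ-to-Jκ1 coding joint. The WT SE bait gave 3 junctions, and Ku70-/- gave 4 from either bait, of which 2 SE circles and 1 CE joint took the signal side, 1 SE circle and 1 CE joint the coding side and the rest neither. The Serbp1 site (chr6:67217773-67217800), 800 bases into the gene for an mRNA-binding protein and 3.45 Mb from Jκ1, held 5 distinct junctions in 5 libraries. There the 2 WT CE deletions took the coding side of CACAATG, the 2 WT SE circles took the signal side, and 1 Ku70-/- SE joint took neither.

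A further 4 positions were mostly reads that matched Igκ as well. At the 43 Mb site (chr6:43031516-43031550) 37 of 40 distinct junctions were from WT with the CE bait, all inversions, with a median of 20 bases between bait and prey, and its copies numbered 57. Its neighbour (chr6:43026476-43026525) had 24 distinct junctions in 25 copies, of which 20 matched Igκ. The nearest gene start to both is that of Olfr443-ps1, of the olfactory receptor family. Another 2 lie in TG repeats within introns of Ccdc129 (chr6:55855029-55855037, 12 distinct junctions, 10 matching Igκ) and Nxph1 (chr6:9120221-9120228, 11 and 11), a neurexophilin gene of the nervous system. All 23 junctions at these repeats came from WT with the CE bait.

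**Figure D5:**
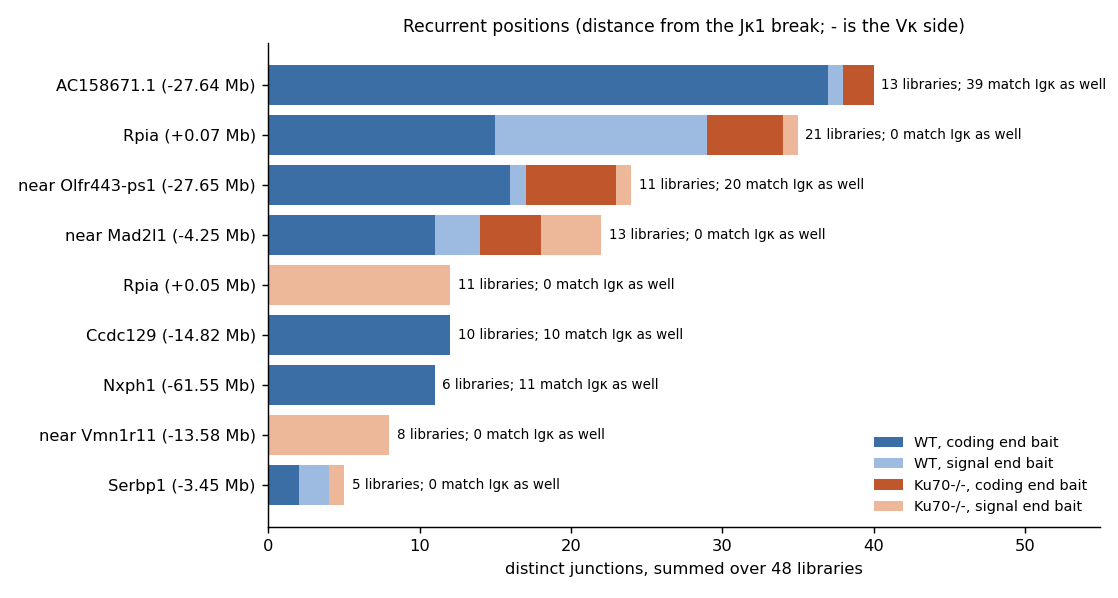
Recurrent positions (9 of the 10), named by gene or nearest gene with the distance from Jκ1, as bars of distinct junctions summed over the 48 libraries and split by genotype and bait, with the number of libraries and of junctions that match Igκ at least as well beside each bar. The Rpia exon 1 site and the site beside Mad2l1 hold no junction that matches Igκ, and the bars at 0.05 Mb in Rpia and near Vmn1r11 come only from Ku70-/- with the SE bait.

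A position in Cntn3, a contactin gene, fell outside these 10 because 1 library held all of it, and is named after its values were seen. It lies at chr6:102290425-102290435 and gave 7 distinct junctions with 553 copies, all in library 1 of Ku70-/- with DMSO from the SE bait. The Foxp1 site printed above (chr6:99045446-99045456), likewise named after its values were seen, held 4 distinct junctions in 4 WT libraries, 3 of which had the CAC within 3 bases.

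Counting each merged position once, the genes with the most positions were the neighbours of the locus and large genes. Eif2ak3, which encodes the endoplasmic reticulum stress kinase PERK and is the next gene past Rpia, had 17 positions with 25 distinct junctions in 16 libraries, 9 in WT and 16 in Ku70-/-. Rpia had 15 positions with 65 distinct junctions in 33 libraries, 34 in WT and 31 in Ku70-/-. These genes span 60.7 and 26.5 kb, so that Rpia had 56.6 and Eif2ak3 28.0 positions per 100 kb, while no other gene of the first 10 exceeded 7.26. Foxp1, a forkhead transcription factor used in B cell development, had 11 positions in 341.2 kb with 6 distinct junctions in WT and 13 in Ku70-/-. It was followed by Gng12, a G protein subunit, with 6 positions and 7 distinct junctions, all WT. Next came the cytokine receptor genes Il23r and Il12rb2 with 5 positions each and 7 WT junctions each, against 3 and 1 in Ku70-/-. The calcium channel gene Itpr2 had 5 positions, all Ku70-/- and all from the CE bait, and Frmd4b had 4.

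Genes within 1 Mb of the bounds were not hit evenly. On the Cκ side 8 of 16 protein-coding genes held a joint, 102 distinct junctions in all, of which Rpia and Eif2ak3 held 65 and 25. Smyd1 held 4, Reep1 held 3, Kdm3a held 2 and Thnsl2, Rmnd5a and Rnf103 held 1 each. Cd8a and Cd8b1, which encode the T cell coreceptor CD8, Fabp1, Foxi3 and 4 other genes held 0. On the Vκ side 6 of 15 genes held 35 distinct junctions. These were Il23r (10), Il12rb2 (8), Gng12 (7), Serbp1 (6), the stress gene Gadd45a (3) and the vomeronasal receptor gene Vmn1r32 (1), while 7 other vomeronasal receptor genes and 4930597O21Rik were among those at 0.

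Joints in Tcrb, the T cell receptor β locus on the same chromosome, were counted apart. Its window (chr6:40841295-41508370) held 3 distinct junctions in 3 of 48 libraries, or 4.5 per Mb summed over all libraries against 6.55 per Mb for all of chromosome 6 outside Igκ. These were a deletion in Trbv13-2 at 41071767 with 2 copies in Ku70-/- with DMSO from the CE bait, a circle at 41268776 with 3 copies in Ku70-/- with DMSO from the SE bait that matched Igκ as well, and a deletion at 41504543 with 6 copies in WT with L67 from the CE bait. The last had a CAC within 3 bases. Genotypes differed by 0 from the CE bait and by 0.11 from the SE bait on the log2 scale of the count plus 1 (exact permutation test, adjusted p = 1.00 for each).

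The exact joint, with its bait end and overlap, was seldom shared. Of 855 kinds of joint, 819 were found in 1 library and 36 in 2 or more of the same bait, 24 of these only in WT, 11 only in Ku70-/- and 1 in both. In 8 of the 36 the libraries included both cycling and arrested cells, 3 in WT and 5 in Ku70-/-. Of the shared joints in Ku70-/-, a deletion in Gars at 55001205 was found in 4 CE libraries with 48 copies and an excision circle in Eif2ak3 at 70831221 in 4 CE libraries with 58 copies. Leaving out all joints seen in more than 1 library ended the calls on orientation in WT from the CE bait (22.6 points) and in Ku70-/- from the SE bait (32.2 points), and on the direct share from the CE bait (12.8 points).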

How the data were processed

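HTGTS-JoinT-seq libraries were made from vAbl pro-B cells in 16 groups of 3. The authors demultiplexed the reads with fastq-multx, trimmed them with SeqPrep, down-sampled each library to 500000 read pairs with Seqtk and ran TranslocWrapper.pl against mm9, without removing duplicates, then recovered junctions near the bait with their JoinT script, and the labels name Bowtie2. The deposited tables hold 1 row per junction with its prey position, strand, bait end and sequence, so that counts are rows of those tables and PCR copies are among them.

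Groups came from the labels. Distinct junctions were unique within a library by prey position and strand, by bait end and by the bases between, and positions within 50 bases were merged. Counts were compared as log2(count + 1), densities over 64.4 Mb on the Vκ side, 78.7 Mb on the Cκ side and 2403.8 Mb of 19 other chromosomes as log2 ratios after adding 0.5 to each count, and structures over overlaps or gaps of at most 20 bases. Tests enumerated all permutations of libraries between groups within treatment or bait (160000, 8000 or 400 arrangements) or all 512 sign flips over 9 libraries, and p-values were adjusted over 48 tests with a threshold of 0.05. With 3 libraries against 3 alone the smallest p is 0.1, so treatments or baits were pooled as strata. A TG or CA repeat was 10 or more such units within 30 bases. Reads were aligned from the first prey base with BLAST+ 2.17.0 (word size 11, E value 0.001) to Igκ and to 2000 bases either side of the listed position. Genome and genes were NCBIM37 and GENCODE M1. The named positions were the 10 with the most distinct junctions among those in at least 3 libraries. 1 of them and a few genes are not reported here. Their members, the gene lists and the tests were chosen with earlier results of these data known, and the Igκ match, the shared joints, the CAC share, the gene-start share and the pairing of baits by serial order were added after the data were seen. Python 3.11.15, NumPy 2.4.6, pandas 2.3.3, SciPy 1.17.1 and pysam 0.24.0 were used, and each test was tested on simulated data. Values after ± are standard errors over the 9 arrested libraries of a set, with DMSO, L67 and L82-G17 pooled, and measure the spread between libraries. The upper limit given for a count of 0 covers counting error only.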

Additional observations from a re-analysis of the deposited data

How the results depend on the processing

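Of 430 values under other settings, 344 kept their direction and side of the threshold, 38 lost a call, 11 gained one and 37 changed sign. The CAC shares, the share within 1 Mb from the SE bait, the gene-start share from the SE bait and the higher counts of Ku70-/- from the SE bait kept theirs throughout. Counts as a share of all distinct junctions were not among these settings. Causes were not tested. Values are log2 for counts and densities and percentage points for shares, "against translocations" means chromosome 6 minus other chromosomes, and "changed sign" includes values that passed in neither setting.

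With copies counted, L67 in WT (0.88), the bait in WT (-0.36) and L67 in Ku70-/- (0.68) lost their calls, the bait in Ku70-/- changed sign (0.42) and gene starts from the CE bait gained a call (-15.0). With joints merged within 5 bases, L67 in Ku70-/- (1.21), orientation in WT CE (43.0) and microhomology against translocations in WT CE (9.99) lost theirs, gene starts from the CE bait (-7.73) and insertions against translocations in WT CE (-11.2) gained one and direct joints against translocations in WT CE changed sign (1.24). The setting per 100000 recovered junctions divided distinct junctions by a total that counts copies. There, arrest in WT (0.73) and L67 in Ku70-/- (0.91) lost theirs, L82-G17 in WT (0.67) and arrest in Ku70-/- (-2.12) changed sign and L82-G17 in Ku70-/- gained one (1.14).

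With the bounds 1 Mb farther out, where no junction within 1 Mb remained so that this share could not be computed, the calls on genotype in CE distinct junctions (0.71), L67 in Ku70-/- (1.04), the SE slope (0.31) and microhomology against translocations in WT CE (3.28) were lost. Signs changed for L82-G17 in WT (0.20), the CE slope (-0.17), gene starts from the CE bait (1.08), insertions against translocations in WT CE (3.26), the SE genotype differences in direct joints (10.1), microhomology (-11.9) and insertions (1.87), direct joints (-1.57) and microhomology (9.14) against translocations in WT SE, and direct joints against translocations in Ku70-/- SE (2.21). With preys of at least 50 bases, L67 in WT (0.65), orientation (43.8) and microhomology against translocations (10.5) in WT CE and the SE slope (0.29) lost calls, gene starts from the CE bait gained one (-8.13), and direct joints (3.29) and microhomology (-1.96) between genotypes from the SE bait and microhomology against translocations in WT SE (2.43) changed sign.

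The 10 named positions were picked from these data and left out on chromosome 6 only, so comparisons with other chromosomes shift by construction. Without these positions, calls were lost for L67 in Ku70-/- (1.06), the CE share within 1 Mb (-2.06), CE direct joints (7.38), WT CE density (0.40), orientation in WT CE (30.1) and Ku70-/- SE (29.98), microhomology against translocations in WT CE (15.1) and the SE slope (0.23). Insertions against translocations in WT CE gained one (-24.3), and the CE slope (-0.095), SE direct joints (0.19) and direct joints against translocations in WT CE (9.15) and Ku70-/- SE (2.65) changed sign. Without library 1 of Ku70-/- with DMSO from either bait, arrest (2.21) and bait (-0.59) in Ku70-/- gained calls, L67 lost its call (0.25), and L82-G17 (-0.021), SE direct joints (0.24), and direct joints (2.86) and insertions (-0.72) against translocations in Ku70-/- SE changed sign.

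Narrower distance bins ended the SE slope call (0.14), and beyond 30 Mb the WT CE density ratio changed sign (-0.024). With shares over copies, CE microhomology lost its call (11.3), insertions against translocations in WT CE gained one (-9.95), and insertions in Ku70-/- CE (3.04), microhomology in WT SE (0.0751) and direct joints in Ku70-/- SE (7.24) against translocations changed sign. Without the limit of 20 bases, microhomology against translocations in WT CE lost its call (7.25) and SE insertions changed sign (0.293).

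Of the settings added after the data were seen, leaving out reads that match Igκ ended the CE calls on direct joints (11.5), microhomology (5.37) and insertions (-16.9), gave calls on gene starts from the CE bait (-15.1) and insertions against translocations in WT CE (-24.4), and changed the sign of direct joints in WT CE (6.67), microhomology (-3.69) and insertions (8.12) in Ku70-/- CE and microhomology in WT SE (5.92) against translocations. Leaving out joints seen in more than 1 library ended the calls on CE direct joints (12.8), orientation in WT CE (22.6) and Ku70-/- SE (32.2) and microhomology against translocations in WT CE (2.71), and changed the sign of direct joints against translocations in WT CE (3.43) and Ku70-/- SE (3.11) and of SE direct joints between genotypes (1.84).

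Leaving out 1 library at a time changed no call or sign in 31 of the 48 results. The other 17 ranged from 0.51 to 1.36 for L67 in Ku70-/-, 1.11 to 1.95 for arrest and -0.72 to -0.29 for bait in Ku70-/-, 0.59 to 1.01 for genotype in CE distinct junctions, -7.33 to -5.01 for gene starts from the CE bait, 41.9 to 60 for orientation in WT CE and -18.8 to 2.13 in Ku70-/- CE. SE genotype differences ranged from -6.01 to 0.781 for direct joints and -6.52 to 2.51 for insertions. Against translocations, direct joints ranged from -2.24 to 0.060 in WT CE, 6.32 to 10.1 in WT SE and -2.98 to 2.86 in Ku70-/- SE, microhomology from 7.48 to 10.7 in WT CE, -5.38 to 0.498 in WT SE and -3.59 to 0.551 in Ku70-/- SE, and insertions from -9.69 to -6.15 in WT CE and -0.723 to 3.57 in Ku70-/- SE. The labels give no replicate numbers, but serial numbers run in the same order for both baits. In a replicate block that paired CE and SE libraries in that order, added after the data were seen, arrest (3.04) and L67 (0.67) in WT and L67 in Ku70-/- (1.07) lost their calls, each at the smallest exact p that 3 against 3 allows, 0.1, and the bait in WT (-1.34) kept its call. Deviations of Vκ junctions in 10 kb bins from the group mean correlated by -0.35 to 0.44 (median 0.050) within these 24 pairs, over 0.1 in 9, and 8 CE libraries correlated best with their own partner. Few joints limit the shares, with 4 to 24 distinct junctions per arrested WT SE library and 3 in library 1 of Ku70-/- with DMSO from the CE bait.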
